A study of Homo sapiens with 6 samples.

Results

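The glycan-building transferases of RL95-2 cells were described here as 14 gene families, taken by the start of the gene symbol in the count tables. The families were GALNT, GCNT, MGAT, B3GNT, B3GALT, B4GALT, ST3GAL, ST6GAL, ST8SIA, FUT, CHST, HS2ST, HS3ST and HS6ST, without antisense symbols, and they held 112 of the 23228 genes listed. RL95-2 is an established human endometrial cancer cell line. In 3 control libraries the cells had been kept for 24 h in serum-free RPMI and DMEM in equal parts, and in 3 ADP-CM libraries for the same time in serum-free RPMI and ADP-CM in equal parts. ADP-CM is DMEM that had been conditioned by mature adipocytes isolated from human visceral fat and then passed through a filter, so the adipocytes themselves were not added to the cells. All 6 libraries came from this 1 cell line, without an added gene or drug. The labels did not say whether the replicates were separate cultures, so the p-values measure the spread between these samples, which may be technical. The comparison asked which genes of the EEC cells (endometrioid endometrial cancer cells) differed in the presence of ADP-CM.

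Glycans are assembled in the endoplasmic reticulum and the Golgi by transferases, each of which adds 1 kind of sugar or sulfate in 1 kind of linkage. GALNT enzymes start mucin-type O-glycans on serine and threonine, GCNT and MGAT enzymes add the branches of O-glycans and N-glycans, and galactose and N-acetylglucosamine are then added in turn by the B4GALT, B3GALT and B3GNT enzymes. Sialyltransferases and fucosyltransferases cap the chains, and sulfotransferases place sulfate on chondroitin, dermatan and heparan sulfate, where it creates docking sites for growth factors. Altered sialylation, branching and sulfation are long-known features of epithelial tumors.

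Reads counted on genes ranged from 16262614 to 18363033 per library, and the 3 ADP-CM libraries were the deepest, so levels are given as TMM-normalized CPM (read counts scaled to library size), which correct for depth. Values by library are given in the order of replicates 1, 2 and 3 of each group. The count on no gene made up 10.2% to 10.3% of all counts in control and 11.5% to 11.6% in ADP-CM, with those left out of the gene counts included in the total. All 7 epithelial markers were detected in every library, and 5 of them fell, 1 rose and EPCAM did not pass the test, with a summed level of 4143 to 4217 CPM in control and 3489 to 3537 CPM in ADP-CM. The 8 adipocyte markers summed to 0.616 to 1.20 CPM over the 6 libraries, and ADIPOQ, LEP and CIDEA had no read. The summed level of the 7 fibroblast and stromal markers, nearly all of it COL1A1, was 61.5 to 68.4 CPM in control and 78.3 to 79.2 CPM in ADP-CM. The 8 leukocyte markers summed to 7.08 to 8.53 CPM in control and 9.98 to 12.2 CPM in ADP-CM, with CD3D and MS4A1 at 0. Nearly all of this was CD68, which shares 81.6% of its exonic bases with a gene model on its own strand. The 5 endothelial markers summed to 54.6 to 67.1 CPM in all, nearly all of it CDH5, with KDR at 0. The part of these shifts in the results below was not tested. In RNA of whole cultures, fewer cells of 1 kind and less RNA per cell cannot be told apart.

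Of the 112 transferases, 17 had no read in any library, 29 had reads but were under the filter on low counts, and 66 were tested. By the quasi-likelihood test of edgeR, with p-values adjusted by Benjamini and Hochberg's method over all 12663 tested genes, 11 of the 66 rose in ADP-CM at an adjusted p under 0.01, or 16.7% of them, where 13.5% of all tested genes rose. The number that fell was 13, or 19.7%, where 13.0% of all tested genes fell. The share that rose was near that of all genes, and it was below it with DESeq2 (4 of 64, or 6.25%, where 8.57% of all genes rose) and without control replicate 3 (6 of 67, or 8.96%, where 10.5% rose). The share that fell with DESeq2 was 9 of 64, or 14.1%, where 7.93% of all genes fell. The changes were small. The median log2 fold change was -0.03 over the 66 and -0.00231 over all genes, and the median size of the change, regardless of sign, was 0.15 and 0.11. With a fold change over 1.5 required as well, 0 transferases rose, against 1.14% of all genes, and 1 fell, ST6GALNAC2, against 1.14% of all genes. At an unadjusted p under 0.05 and the same fold, 0 rose and 3 fell, where 1.82% of all genes rose and 1.67% fell, and DESeq2 also had 0 that rose past both limits. Without control replicate 3, or without ADP-CM replicate 2, ST6GALNAC4 passed both limits with a log2 fold change of 0.59 each time. Without ADP-CM replicate 3, GCNT3 passed both with -1.17.

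**Figure D1:**
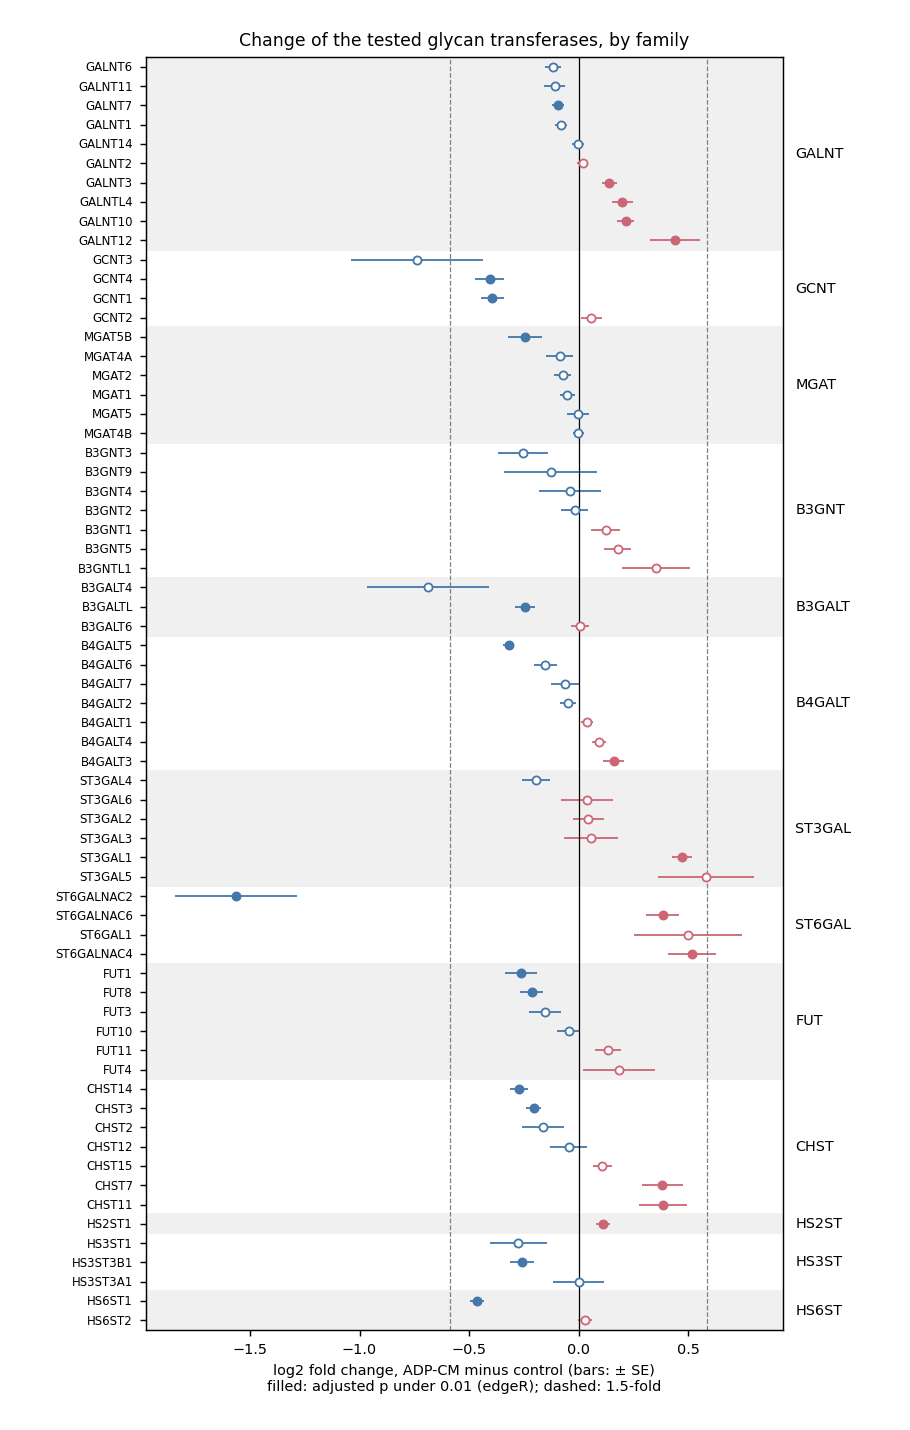
The log2 fold change in ADP-CM against control (x axis) is plotted with its standard error for each of the 66 tested transferases (y axis), grouped by family; filled points had an adjusted p under 0.01 in edgeR's quasi-likelihood test and dashed lines mark a 1.5-fold change. ST6GALNAC2, at -1.56, is the single filled point outside the dashed lines.

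The reads of the 6 libraries were enough to bound most of the transferases that did not pass. Of these 42, 37 had a 95% interval of the log2 fold change that lay within a 1.5-fold change in either direction, and 31 within 1.25-fold. The 5 with wider intervals, B3GALT4, B3GNTL1, GCNT3, ST3GAL5 and ST6GAL1, all had means under 5 CPM. The summed level of all 112 transferases was 3581, 3598 and 3586 CPM in the control libraries and 3471, 3467 and 3469 CPM in the ADP-CM libraries, a ratio of 0.967. The groups did not overlap, and the ADP-CM sums were lower by a small amount. The largest falls in CPM were those of B4GALT5, from a mean of 263 to 211 CPM, and HS6ST1, from 151 to 109.7 CPM.

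Sialyltransferases, which add sialic acid as the last sugar of many chains, held the largest changes in both directions among the transferases that passed. Of 20 listed in the ST3GAL, ST6GAL and ST8SIA families, 10 were tested, 3 rose, 1 fell and 6 did not pass, with a median log2 fold change of 0.22. Among all tested genes 13.5% rose and 13.0% fell. ST6GALNAC2 transfers sialic acid to the first sugar of O-glycans. Its reads numbered 26, 44 and 31 in control and 14, 12 and 11 in ADP-CM, or 1.60, 2.61 and 1.81 CPM against 0.773, 0.654 and 0.598 CPM. Every control library stood above every ADP-CM library, though all 6 were low. The mean fell from 2.01 ± 0.529 to 0.675 ± 0.0895 CPM (SD, n = 3 each), or to 33.8% of control, and the log2 fold change was -1.56 (SE 0.28, edgeR adjusted p = 5.88e-06). ST6GALNAC2 lies on chromosome 17, 74561459 to 74583038 in GRCh37, on the minus strand. In the GENCODE annotation 39.8% of its exonic bases are shared with a gene model on its own strand and 19.3% with one on the opposite strand, so its reads could not be assigned to it with certainty.

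ST6GALNAC4 and ST6GALNAC6 add sialic acid in the same linkage to chains that are already sialylated, and both rose. ST6GALNAC4 measured 6.96, 6.69 and 7.89 CPM in the control libraries and 9.56, 9.22 and 12.1 CPM in the ADP-CM libraries. The groups did not overlap, and ADP-CM replicate 3 was the highest. Its log2 fold change was 0.52 (SE 0.11, edgeR adjusted p = 0.000104). ST6GALNAC6 measured 15.3, 14.8 and 13.3 CPM in control and 18.4, 18.4 and 19.7 CPM in ADP-CM, again without overlap, with a log2 fold change of 0.38 (SE 0.07, edgeR adjusted p = 2.75e-05). These genes are neighbours on chromosome 9 in GRCh37, on the same strand, with ST6GALNAC6 at 130647600 to 130667687 and ST6GALNAC4 at 130670165 to 130679320, and 2477 bases between them. Of the exonic bases of ST6GALNAC6, 47.0% also belong to a gene model on its strand, and no exonic overlap was annotated for ST6GALNAC4. The proximal promoter of ST6GALNAC4 is shown because it belongs to the transferase with the highest rise that passed. It is the 250 bases before the transcription start from RefSeq on GRCh38.p14, chr9:127917042-127917291 on the minus strand, and its capitals mark 6 matches to the GC box letters GGGCGG, searched on both strands.
ST6GALNAC4: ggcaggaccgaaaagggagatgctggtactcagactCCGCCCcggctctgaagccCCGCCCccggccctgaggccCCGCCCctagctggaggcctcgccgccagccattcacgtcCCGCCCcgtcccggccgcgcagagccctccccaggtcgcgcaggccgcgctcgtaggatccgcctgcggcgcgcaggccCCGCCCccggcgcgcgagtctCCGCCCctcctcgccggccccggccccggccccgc

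ST3GAL1, which caps the core 1 disaccharide of O-glycans with sialic acid, rose in every ADP-CM library. It measured 39.8, 37.8 and 38.2 CPM in the control libraries and 53.9, 53.8 and 52.9 CPM in the ADP-CM libraries. Its mean went from 38.6 ± 1.06 to 53.5 ± 0.591 CPM (SD, n = 3 each), and the log2 fold change was 0.47 (SE 0.05, edgeR adjusted p = 5.26e-13). It had the smallest adjusted p among the transferases that rose, and the gap between the groups was far wider than the spread within either. Its relative ST3GAL2, which acts on the same kind of chain, had a log2 fold change of 0.04 that did not pass, with a 95% interval from -0.10 to 0.18. ST3GAL5, the enzyme that starts the ganglioside series from lactosylceramide, was low at 1.53 ± 0.205 CPM in control and 2.30 ± 0.108 CPM in ADP-CM (SD, n = 3 each). Its groups did not overlap, with a log2 fold change of 0.58 and an edgeR adjusted p of 0.0295. ST6GAL1, which adds the terminal sialic acid to N-glycans, stood at 1.05, 1.12 and 1.64 CPM in control and 1.93, 1.47 and 2.01 CPM in ADP-CM. Its groups overlapped, and its edgeR adjusted p was 0.106. The summed level of the 20 sialyltransferases was 118.8, 122 and 121 CPM in control and 140.4, 138 and 145 CPM in ADP-CM. ST3GAL1 alone made up most of the difference of the sums. None of the 6 ST8SIA genes, the polysialic acid and disialic acid synthases, was tested. Of them, ST8SIA1, ST8SIA2 and ST8SIA3 had no read in any library, and ST8SIA5, the highest, had 2, 4 and 1 reads in control and 0, 1 and 5 reads in ADP-CM.

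**Figure D2:**
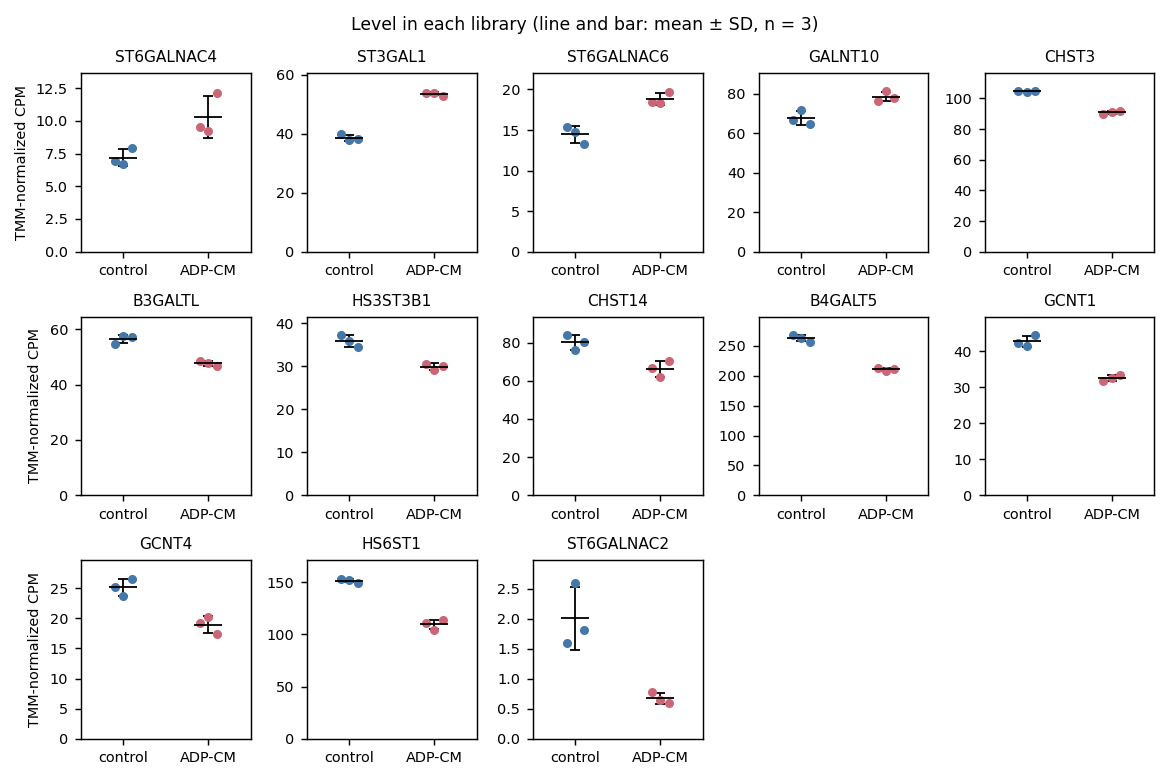
TMM-normalized CPM (y axis, from 0, own scale in each panel) is plotted for the 13 transferases that stayed under an adjusted p of 0.01 in every alternative analysis, with each point a library and the line and bar the mean and SD of 3. The control and ADP-CM points do not overlap in any of the 13 panels, which is no further support, as the genes were chosen for having passed.

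The GALNT enzymes set where O-glycans begin. Of 19 genes listed, 5 had no read, 4 were under the filter and 10 were tested, of which 4 rose, 1 fell and 5 did not pass. Of all tested genes 13.5% rose and 13.0% fell, and with DESeq2 1 of the 10 GALNT genes rose and 0 fell. The median log2 fold change of the family was 0.01. Its summed level was 1106 ± 13.5 CPM in control and 1106 ± 4.09 CPM in ADP-CM (SD, n = 3 each). The family thus gained and lost in single members while its sum stayed within the spread of the libraries. GALNT12 measured 6.10, 6.46 and 5.85 CPM in the control libraries and 8.78, 8.62 and 7.56 CPM in the ADP-CM libraries, and its log2 fold change was 0.44 (SE 0.11, edgeR adjusted p = 0.00159). The groups did not overlap. GALNT10, which favours peptides that already carry a sugar, measured 67.0, 71.6 and 64.7 CPM in control and 76.6, 81.4 and 77.9 CPM in ADP-CM, a log2 fold change of 0.21 (SE 0.04, edgeR adjusted p = 8.22e-06). GALNT3 and GALNTL4, now named GALNT18, also rose, with log2 fold changes of 0.14 and 0.20. GALNT7, another enzyme for partly glycosylated peptides, fell by 0.09 on the log2 scale, the smallest fall that passed.

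GALNT14 had the highest level of the family per kb of exon, at 41.3 CPM per kb in control and 41.2 CPM per kb in ADP-CM. Its libraries stood at 175, 182 and 181 CPM in control and 179, 182 and 176 CPM in ADP-CM, and its log2 fold change had a 95% interval from -0.06 to 0.05. The order of the other abundant GALNT genes per kb in control was GALNT1 at 35.5, GALNT2 at 32.5, GALNT7 at 24.6 and GALNT3 at 17.7 CPM per kb. All GALNT changes past the threshold apart from that of GALNT10 depended on the analysis. With DESeq2 the adjusted p was 0.0287 for GALNT12, 0.0193 for GALNT3, 0.0137 for GALNTL4 and 0.0364 for GALNT7. In edgeR's quasi-likelihood test the adjusted p was 0.0126 for GALNT12 without control replicate 3 and 0.0137 without ADP-CM replicate 1. It was 0.0124 for GALNT3 without ADP-CM replicate 3 and 0.0142 for GALNTL4 without control replicate 3. For GALNT7 it was 0.0186, 0.0311 and 0.0209 without control replicates 1, 2 and 3 and 0.101 without ADP-CM replicate 1. GALNT12 shares 20.9% of its exonic bases with a gene model on the opposite strand, and the strand setting of the counting was not given in the sources used here.

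GCNT enzymes add the N-acetylglucosamine branch that turns core 1 into core 2 O-glycans, or the I branches of longer chains. Of 5 genes listed, GCNT7 had no read, and of the 4 tested 2 fell and 2 did not pass, where 13.0% of all tested genes fell. GCNT1, a core 2 enzyme, measured 42.3, 41.4 and 44.4 CPM in the control libraries and 31.8, 32.5 and 33.3 CPM in the ADP-CM libraries. Its log2 fold change was -0.39 (SE 0.05, edgeR adjusted p = 3.34e-09). GCNT4, a second core 2 enzyme, measured 25.1, 23.8 and 26.5 CPM in control and 19.2, 20.3 and 17.4 CPM in ADP-CM, with a log2 fold change of -0.41 (SE 0.07, edgeR adjusted p = 9.00e-07). Both fell to close to the same share of control, 76.1% and 75.5%, and for neither did the groups overlap. GCNT3, the third core 2 enzyme, was low, at 1.23, 1.95 and 1.11 CPM in control and 0.442, 0.818 and 1.30 CPM in ADP-CM, and its groups overlapped. Its log2 fold change was -0.74 with an edgeR adjusted p of 0.0485, and without ADP-CM replicate 3 it became -1.17 with an adjusted p of 0.00493. GCNT2, the I-branching enzyme and the highest of the family per kb of exon, stood at 5.06 CPM per kb in control and 5.27 CPM per kb in ADP-CM. Its log2 fold change of 0.06 had a 95% interval from -0.04 to 0.15. C1GALT1 and C1GALT1C1, which make core 1 and which lie outside the families, had log2 fold changes of -0.04 and 7.0e-05 that did not pass, with 95% intervals from -0.13 to 0.06 and from -0.09 to 0.09.

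MGAT enzymes build the antennae of N-glycans. Of 8 listed, MGAT4C had no read, MGAT3, which adds the bisecting branch, had at most 1 read in any library, and 6 were tested. MGAT5B, which works mainly on O-mannose chains, fell, and the 5 others did not pass, with log2 fold changes between -0.09 and -0.00143. The 1 fall of 6, or 16.7%, was near the share of all tested genes, 13.0%. MGAT5B measured 16.1, 16.7 and 18.5 CPM in the control libraries and 14.2, 13.8 and 15.4 CPM in the ADP-CM libraries, without overlap, a log2 fold change of -0.25 (SE 0.08, edgeR adjusted p = 0.00862). The adjusted p was 0.0855 with DESeq2. In edgeR's quasi-likelihood test it was 0.0148 and 0.098 without control replicates 2 and 3, and 0.0339 and 0.0426 without ADP-CM replicates 1 and 2. MGAT4B, which adds the branch on the alpha-1,3 arm, had the highest level of the family, 38.9 CPM per kb of exon in both groups, with a 95% interval of the log2 fold change from -0.05 to 0.05. MGAT5, which makes the branch long studied in tumor cells, stood at 41.2 ± 2.74 CPM in control and 41.2 ± 2.68 CPM in ADP-CM (SD, n = 3 each). MGAT2, which adds the arm after MGAT1, shares 92.0% of its exonic bases with a gene model on the opposite strand.

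The B3GNT, B3GALT and B4GALT families, which hold the extending enzymes, numbered 23 genes by symbol, of which 17 were tested. Of these 1 rose and 2 fell, where 13.5% of all tested genes rose and 13.0% fell. Some genes with these symbols, such as B3GALT6 and B3GALTL, which was 1 of the 2 that fell, have other roles, given below. The counts are thus not counts of the extending step alone. B4GALT5, the main lactosylceramide synthase, was the most abundant of all 112 transferases per kb of exon, at 55.7 CPM per kb in control and 44.7 CPM per kb in ADP-CM. It measured 268, 264 and 257 CPM in the control libraries and 214, 208 and 211 CPM in the ADP-CM libraries. The lowest control library was well above the highest ADP-CM library. The mean fell from 263 ± 5.50 to 211 ± 2.88 CPM (SD, n = 3 each), and the log2 fold change was -0.32 (SE 0.03, edgeR adjusted p = 6.45e-17). B4GALT6, which makes the same lipid, was at 35.6 ± 0.738 CPM in control and 32.0 ± 1.28 CPM in ADP-CM (SD, n = 3 each), and its log2 fold change was -0.15 with an edgeR adjusted p of 0.0192. B4GALT5 lies on chromosome 20, 48249482 to 48330415 in GRCh37, on the minus strand, with no exonic overlap annotated. Its promoter is shown as that of the most abundant transferase, chr20:49713879-49714128 on the minus strand of GRCh38.p14 from RefSeq. Its capitals mark 3 GC boxes and 1 match, TTCCCCGAA, to the STAT palindrome letters TTCNNNGAA, the only such match in the promoters at hand of the transferases that rose or fell.
B4GALT5: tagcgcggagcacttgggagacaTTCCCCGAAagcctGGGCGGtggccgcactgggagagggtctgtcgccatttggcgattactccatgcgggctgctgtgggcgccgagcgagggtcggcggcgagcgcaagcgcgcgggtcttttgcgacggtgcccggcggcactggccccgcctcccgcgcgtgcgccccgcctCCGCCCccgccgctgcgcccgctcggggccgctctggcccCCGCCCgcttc

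B4GALT3, which adds galactose to N-glycan antennae, was the 1 gene of the B3GNT, B3GALT and B4GALT families that rose. It measured 45.0, 41.6 and 44.03 CPM in the control libraries and 46.6, 48.8 and 50.4 CPM in the ADP-CM libraries. The groups did not overlap, but they lay close together, and the log2 fold change was 0.16 (SE 0.05, edgeR adjusted p = 0.00567). The adjusted p was 0.056 with DESeq2. In edgeR's quasi-likelihood test it was 0.0634 and 0.0144 without control replicates 2 and 3, and 0.0149 and 0.035 without ADP-CM replicates 2 and 3. It shares 28.7% of its exonic bases with PPOX on the opposite strand. B4GALT1, the other abundant galactosyltransferase of the family, stood at 37.8 CPM per kb of exon in control and 38.9 CPM per kb in ADP-CM and did not pass. B3GALTL, now named B3GLCT, adds glucose to the O-fucose of thrombospondin repeats. It measured 54.7, 57.6 and 57.4 CPM in control and 48.4, 48.0 and 46.8 CPM in ADP-CM, without overlap, a log2 fold change of -0.24 (SE 0.04, edgeR adjusted p = 6.00e-06). B3GALT6, which adds the third sugar of the linker of glycosaminoglycans to proteins, was the highest B3GALT gene at 21.9 CPM per kb in control and 22.0 CPM per kb in ADP-CM, with a 95% interval of the log2 fold change from -0.08 to 0.09. No B3GNT gene passed in edgeR's quasi-likelihood test or with DESeq2, and at an unadjusted p under 0.05 in edgeR, which 22.6% of all genes passed as higher and 22.4% as lower, 2 of the 7 tested rose and 1 fell. The 7 had a median log2 fold change of -0.02, and the symbol B3GNT1 matched the annotation only as an older name of B4GAT1, with 22.4 ± 2.20 CPM in control and 24.4 ± 0.907 CPM in ADP-CM (SD, n = 3 each).

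Fucosyltransferases add fucose to the ends or to the core of glycans. Of 11 listed, FUT2 had no read, 4 were under the filter and 6 were tested. Of these 2 fell and 4 did not pass, where 13.0% of all tested genes fell. FUT1, which makes the H antigen, measured 18.4, 18.8 and 18.8 CPM in the control libraries and 14.1, 16.9 and 15.7 CPM in the ADP-CM libraries. Its log2 fold change was -0.26 (SE 0.07, edgeR adjusted p = 0.00332). FUT8, the enzyme of core fucose on N-glycans, measured 38.5, 38.1 and 39.0 CPM in control and 34.2, 35.0 and 30.6 CPM in ADP-CM, a log2 fold change of -0.21 (SE 0.05, edgeR adjusted p = 0.000953). In both genes the ADP-CM libraries lay below the control libraries and spread more widely. The adjusted p was 0.0504 for FUT1 and 0.0195 for FUT8 with DESeq2. In edgeR's quasi-likelihood test FUT1 had 0.0143 without control replicate 2, 0.0143 without control replicate 3 and 0.0538 without ADP-CM replicate 1, and FUT8 had 0.0234 without ADP-CM replicate 3. FUT10 had the highest level per kb of exon, at 7.38 CPM per kb in control and 7.15 CPM per kb in ADP-CM, and its groups overlapped. FUT3, FUT5 and FUT6, the Lewis enzymes of 1 gene cluster, are close in sequence, so reads may be lost or shared between them. FUT3 had an edgeR adjusted p of 0.0988, and FUT5 and FUT6 had at most 4 reads in any library. Of the exonic bases of FUT8, 11.8% overlap its antisense gene.

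The CHST family sulfates chondroitin, dermatan and other chains. Of 15 listed, 7 were tested, 7 more were under the filter and CHST13 had no read. Of the 7 tested 2 rose, 2 fell and 3 did not pass, where 13.5% of all tested genes rose and 13.0% fell. The CHST genes that moved act on chondroitin or dermatan, but so do CHST12 and CHST15, which did not pass. Their log2 fold changes were -0.04 and 0.11. CHST11, a 4-O-sulfotransferase of chondroitin, measured 7.64, 6.87 and 6.37 CPM in the control libraries and 9.89, 7.91 and 9.46 CPM in the ADP-CM libraries, and its log2 fold change was 0.39 (SE 0.11, edgeR adjusted p = 0.00449). CHST7, a 6-O-sulfotransferase, measured 9.92, 8.82 and 8.19 CPM in control and 11.4, 12.1 and 11.5 CPM in ADP-CM, a log2 fold change of 0.38 (SE 0.10, edgeR adjusted p = 0.000904). Neither pair of groups overlapped, although for CHST11 the closest libraries were near to touching. CHST3, the more abundant 6-O-sulfotransferase, fell from 105 ± 0.276 to 90.9 ± 1.18 CPM (SD, n = 3 each), and the log2 fold change was -0.20 (SE 0.03, edgeR adjusted p = 7.58e-07). CHST14, the 4-O-sulfotransferase of dermatan and the highest of the family at 36.9 CPM per kb of exon in control and 30.5 CPM per kb in ADP-CM, had 83.9, 76.3 and 80.5 CPM in control and 66.6, 62.0 and 70.5 CPM in ADP-CM. It did not overlap either, with a log2 fold change of -0.27 (SE 0.04, edgeR adjusted p = 1.14e-07). The rises depended on the analysis. With DESeq2 the adjusted p was 0.0544 for CHST11 and 0.0226 for CHST7. In edgeR's quasi-likelihood test CHST11 had 0.0175 and 0.0389 without control replicates 2 and 3, and 0.0434 and 0.0154 without ADP-CM replicates 1 and 3, while CHST7 had 0.0153 without control replicate 3.

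The sulfotransferases of heparan sulfate act at the 2-O, 3-O or 6-O position, and their patterns help to decide which growth factors bind. Of 11 listed, 6 were tested, 1 rose and 2 fell, where 13.5% of all tested genes rose and 13.0% fell. HS6ST1 had the smallest adjusted p of all 66 transferases. It measured 153, 152 and 149.5 CPM in the control libraries and 111, 105 and 114 CPM in the ADP-CM libraries. The spread within each group was small beside the gap between them. The mean fell from 151 ± 1.69 to 109.7 ± 4.62 CPM (SD, n = 3 each), or to 72.5% of control, and the log2 fold change was -0.46 (SE 0.03, edgeR adjusted p = 7.82e-20). HS6ST2, which catalyses the same step, was at 95.4 ± 1.91 CPM in control and 97.3 ± 1.92 CPM in ADP-CM (SD, n = 3 each), and the 95% interval of its log2 fold change ran from -0.04 to 0.10. HS6ST1 lies on chromosome 2, 128994290 to 129076442 in GRCh37, on the minus strand, and no exonic overlap was annotated. Its promoter is shown as that of the transferase with the smallest adjusted p, chr2:128318869-128319118 on the minus strand of GRCh38.p14 from RefSeq, with 7 GC boxes in capitals, 2 of which overlap by 1 base.
HS6ST1: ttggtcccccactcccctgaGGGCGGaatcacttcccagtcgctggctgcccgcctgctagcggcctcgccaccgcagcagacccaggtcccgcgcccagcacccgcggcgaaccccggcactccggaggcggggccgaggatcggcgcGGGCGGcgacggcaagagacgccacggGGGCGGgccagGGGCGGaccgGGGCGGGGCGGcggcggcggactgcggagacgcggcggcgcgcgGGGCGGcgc

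HS3ST3B1, a 3-O-sulfotransferase, measured 37.4, 35.8 and 34.4 CPM in the control libraries and 30.6, 29.2 and 30.1 CPM in the ADP-CM libraries. Its log2 fold change was -0.26 (SE 0.05, edgeR adjusted p = 8.28e-05), without overlap of the groups. HS3ST3A1 is nearly identical to it in the catalytic part, so reads there may be left out as not unique, and its own groups overlapped at 7.99 ± 0.346 CPM in control and 7.98 ± 1.60 CPM in ADP-CM (SD, n = 3 each). HS2ST1, the single 2-O-sulfotransferase, rose from 103 ± 1.81 to 112 ± 0.686 CPM (SD, n = 3 each). That log2 fold change of 0.11 (SE 0.03, edgeR adjusted p = 0.00395) was the smallest rise that passed, and its groups did not overlap. The adjusted p of HS2ST1 was 0.0336 with DESeq2, and in edgeR's quasi-likelihood test 0.0253 and 0.0259 without control replicates 1 and 2 and 0.0137 and 0.0118 without ADP-CM replicates 1 and 2. The summed level of the HS6ST family was 247 ± 2.58 CPM in control and 207 ± 2.81 CPM in ADP-CM (SD, n = 3 each), and that of the HS3ST family 50.0 ± 1.55 CPM and 43.0 ± 1.56 CPM. The summed levels were lower in all 3 ADP-CM libraries than in any control library in both families. These sums mostly repeat single genes. The fall of the HS6ST sum came from HS6ST1, as HS6ST2 did not fall, and most of that of the HS3ST sum came from HS3ST3B1.

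**Figure D3:**
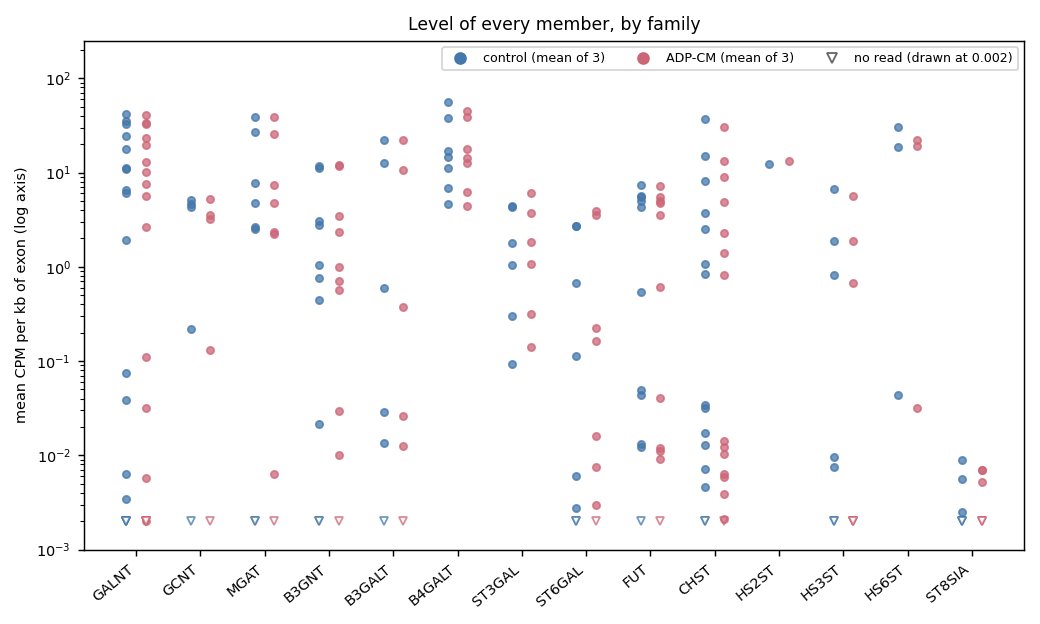
The mean CPM per kb of exon (y axis, log scale) of each of the 112 transferases is plotted by family (x axis), with control and ADP-CM side by side, each the mean of 3 libraries, and triangles for means without a read. The highest points belong to B4GALT5, at 55.7 CPM per kb in control and 44.7 CPM per kb in ADP-CM, and the ST8SIA family reaches 0.00890 CPM per kb at most.

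The families differed widely in how many members the cells used. All 6 ST3GAL genes and all 7 B4GALT genes were tested, while 0 of 6 ST8SIA genes, 7 of 15 CHST genes and 3 of 7 HS3ST genes were. Of the 29 genes under the filter, 20 had at most 3 reads in every library, which was taken as the limit of detection, so no fold is given for them. The other 9 were B3GALT1, B3GALT5, CHST10, FUT6, FUT9, GALNT4, GALNT9, HS6ST3 and ST8SIA5. GALNT4 had the most, with 7, 5 and 8 reads in control and 5, 13 and 15 reads in ADP-CM, but 93.4% of its exonic bases also belong to the readthrough gene POC1B-GALNT4. Among the most abundant enzymes per kb in control, B4GALT5 stood first at 55.7, followed by GALNT14 at 41.3, MGAT4B at 38.9, B4GALT1 at 37.8, CHST14 at 36.9, GALNT1 at 35.5, GALNT2 at 32.5 and HS6ST1 at 30.4 CPM per kb. Neighbours in this order are close, and lengths were taken from the union of all annotated exons, which may be longer than the transcripts these cells make. In ADP-CM, HS6ST1 was at 22.1 CPM per kb.

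Several reactions are shared by a pair of enzymes, and the ratio of their reads within a library does not depend on its depth. The 8 pairs were chosen after the values had been seen, so the ratios are described without a test. Reads of HS6ST1 per read of HS6ST2 numbered 1.63, 1.56 and 1.57 in control and 1.14, 1.05 and 1.19 in ADP-CM. Reads of CHST3 per read of CHST7 numbered 10.6, 11.8 and 12.8 in control and 7.84, 7.54 and 7.97 in ADP-CM. In both pairs the groups did not overlap, and the more abundant enzyme lost share. ST3GAL1 per ST3GAL2 went the other way, from 2.40, 2.10 and 2.14 in control to 3.07, 2.93 and 2.92 in ADP-CM, and B4GALT5 per B4GALT6 went from a mean of 7.39 ± 0.239 to 6.59 ± 0.332 (SD, n = 3 each). For the other 4 pairs, CHST11 per CHST12, ST6GALNAC6 per ST6GALNAC4, MGAT4A per MGAT4B and HS3ST3B1 per HS3ST3A1, the groups overlapped.

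**Figure D4:**
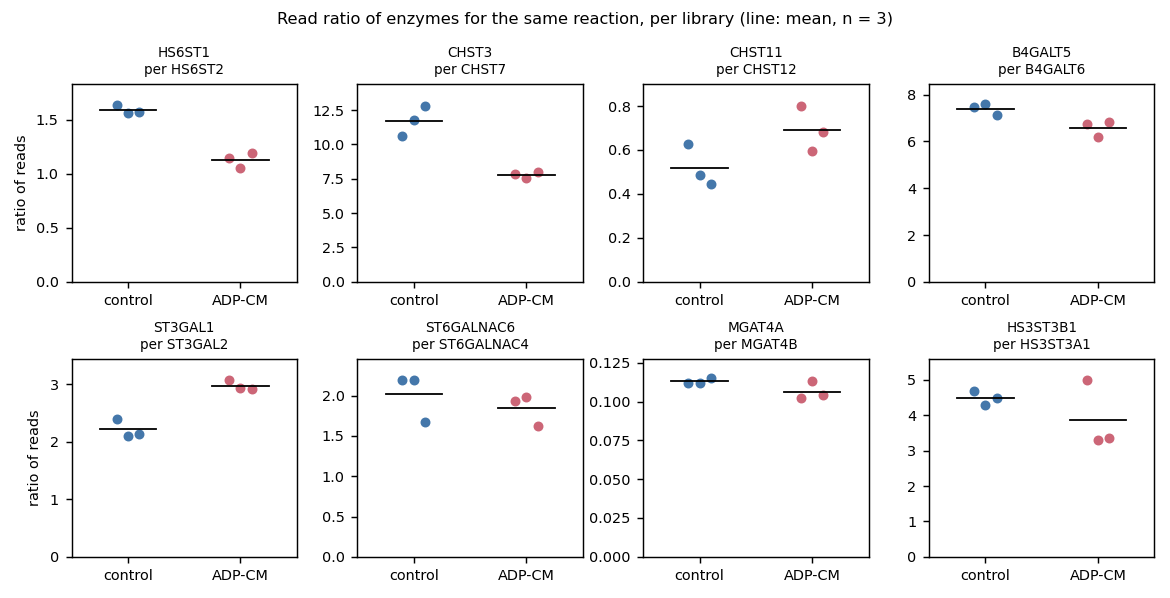
The ratio of reads of 2 enzymes of the same reaction (y axis, from 0) is plotted for each library of the 2 groups (x axis), with a line at the mean of 3. The points of control and ADP-CM are apart for HS6ST1 per HS6ST2, CHST3 per CHST7, B4GALT5 per B4GALT6 and ST3GAL1 per ST3GAL2, and overlap in the other 4 panels.

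RefSeq promoters of 250 bases before the start were at hand for 84 of the 112 genes, 131 promoters in all, and not for ST6GALNAC2 or ST3GAL1. The GC box letters GGGCGG stood in 61.1% of these promoters on either strand, and in 42.6% of all 35116 promoters in the table. Among the genes that rose it was 10 of 12 promoters, among those that fell 12 of 19, and among those tested that did not pass 34 of 56. The STAT palindrome letters TTCNNNGAA, which cannot overlap a GC box, stood in 5 of the 131 promoters, or 3.82%, and in 6.57% of all promoters. The 5 included no gene that rose. A match is a description of letters in this window only.

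Other genes of glycan synthesis and turnover, given as 7 lists chosen for their known roles, had 16 of 90 tested genes higher, or 17.8%, and 15 lower, or 16.7%, where 13.5% and 13.0% of all genes were. Sugar nucleotide supply had 5 of 25 higher and 2 lower. UAP1, which makes UDP-N-acetylglucosamine, rose from 150.5 ± 4.31 to 181 ± 8.91 CPM (SD, n = 3 each), and the log2 fold change was 0.26 (edgeR adjusted p = 7.53e-11). The enzymes of sialic acid that passed moved in both directions, with NANP at 0.22, NANS at -0.21 and CMAS at -0.18 on the log2 fold change scale. GNE, another sialic acid enzyme, was under the filter, with 9, 4 and 4 reads in control and 11, 1 and 9 reads in ADP-CM. NANP, which releases free sialic acid from its phosphate, had an adjusted p of 0.00177 in edgeR's quasi-likelihood test, 0.0326 with DESeq2 and 0.016 without control replicate 3. The Golgi transporters had 1 of 9 higher and 2 lower. SLC35D1, which carries UDP-sugars for chondroitin, had a log2 fold change of -0.32, and SLC35B2, a carrier of the sulfate donor into the Golgi, -0.22. Among N-glycan trimming enzymes 2 of 8 rose and 1 fell, with MOGS, the first glucosidase, at 0.21 and MAN2A1, a Golgi mannosidase, at 0.15.

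The glycosaminoglycan chain enzymes outside the families had 4 of 20 higher and 4 lower, and 2 of the rises exceeded 1.5-fold. Of all tested genes 13.5% rose and 13.0% fell, and 1.14% rose past both limits. EXTL2, which can add a sugar to the linker region, measured 12.0, 13.3 and 13.3 CPM in the control libraries and 20.8, 20.0 and 19.7 CPM in the ADP-CM libraries, and its log2 fold change was 0.65 (SE 0.07, edgeR adjusted p = 9.61e-11). CSGALNACT1, which starts chondroitin chains, measured 6.66, 6.87 and 5.67 CPM in control and 10.3, 9.82 and 9.08 CPM in ADP-CM, a log2 fold change of 0.60 (SE 0.11, edgeR adjusted p = 8.83e-06). In both the groups lay apart, although the fold of CSGALNACT1 was under 1.5 without control replicate 3 and without ADP-CM replicate 1, with log2 fold changes of 0.52 and 0.56. EXT1 and EXT2, which polymerize heparan sulfate, fell by 0.16 and 0.27 on the log2 scale. Among the 16 other glycosyltransferases, 2 rose and 2 fell, or 12.5% each, near the shares of all genes. LFNG, the fringe enzyme that extends O-fucose on Notch, measured 44.5, 43.9 and 45.3 CPM in control and 25.9, 26.8 and 27.6 CPM in ADP-CM, a log2 fold change of -0.73 (SE 0.05, edgeR adjusted p = 9.73e-19). B4GALNT4, which makes LacdiNAc, had a log2 fold change of 0.30 (edgeR adjusted p = 6.77e-08).

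Of 8 tested hydrolases that remove sugars in the lysosome or at the cell surface, 4 fell and 4 did not pass. Of all tested genes 13.0% fell. NEU1, the lysosomal sialidase, measured 79.3, 80.5 and 79.2 CPM in the control libraries and 60.3, 58.2 and 60.4 CPM in the ADP-CM libraries, and its log2 fold change was -0.42 (SE 0.04, edgeR adjusted p = 2.54e-14). HEXA, a subunit of a lysosomal hexosaminidase, had a log2 fold change of -0.25, and FUCA2, a fucosidase, -0.23. At an unadjusted p under 0.05 in edgeR's quasi-likelihood test 0 of the 8 rose and 7 fell, where 22.6% of all genes rose and 22.4% fell. DESeq2 had 0 higher and 4 lower at an adjusted p under 0.01, where 8.57% of all genes were higher and 7.93% lower. Of 4 tested galectins, lectins that bind galactose-ended chains, 2 rose and 2 did not pass, where 13.5% of all tested genes rose. Those that rose were LGALS8 and LGALS1, with log2 fold changes of 0.33 and 0.10. The rise of LGALS1 had an edgeR adjusted p of 0.0232 without ADP-CM replicate 1, and LGALS8 shares 28.7% of its exonic bases with genes on the opposite strand.

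**Figure D5:**
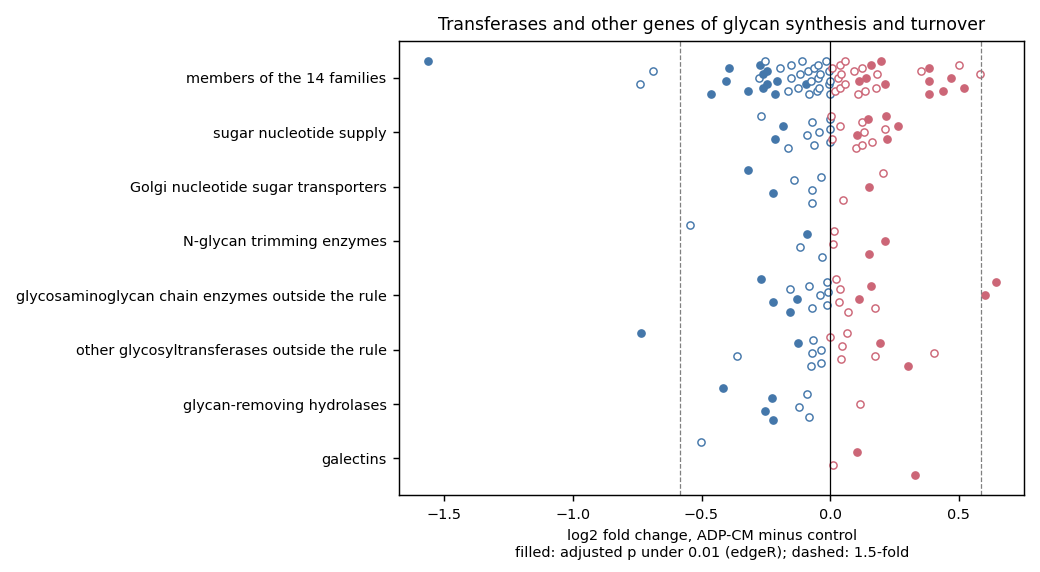
The log2 fold change in ADP-CM against control (x axis) of each tested gene is plotted by list (y axis, the transferases in the top row), with filled points at an adjusted p under 0.01 in edgeR's quasi-likelihood test and dashed lines at a 1.5-fold change. The filled points outside the dashed lines are ST6GALNAC2, LFNG, EXTL2 and CSGALNACT1, and the hydrolases have filled points only on the left.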

How the data were processed

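RNA from RL95-2 cells (3 control and 3 ADP-CM libraries, 24 h) had been sequenced by the authors as stranded poly(A) libraries with 50 bp single reads. Per the labels and methods, reads were aligned to hg19 with TopHat2 and assigned to NCBI RefSeq genes by HTSeq, and the deposited values are raw read counts per gene. Program versions and the strand setting of the counting are not given in the sources used here. HTSeq leaves out reads with more than 1 alignment (20.5% to 20.8%) and reads on more than 1 gene (0.709% to 0.721%), so near-identical and overlapping genes are undercounted. The shares are of all counts, summary lines included, and may not equal shares of reads. These summary lines entered neither the library sizes nor the tests.

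Counts were normalized by TMM and compared with the quasi-likelihood test of edgeR 4.0.16 in R 4.3.3 on group alone, over the 12663 of 23228 genes kept by filterByExpr, with Benjamini-Hochberg adjustment. A gene was said to rise or fall at an adjusted p under 0.01, and a fold over 1.5 was the further limit. The common biological coefficient of variation was 1.67%. All pairs of replicates differed by more than sampling noise and counted as separate samples. The steps were tested on simulated counts. DESeq2 1.42.0, its size factors, plain library sizes, other filters and limits, the replicate number as a block, and each library left out in turn were alternatives. Reads carry no molecular identifiers, so the limit of detection of 3 reads covers counting error only.

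Symbols were matched to GENCODE 44 on GRCh37, 107 of the 112 directly and 5 by an older name. Exonic lengths are unions of annotated exons. The antisense symbol CHST9-AS1 was left out. Genes described with their values were those past both limits, up to 2 per family or list with the largest changes that passed, and the highest of each family per kb; others were named within small counts or after their values were seen. The transferases, lists and pairs were chosen with earlier results of these data known. Some gene-level values of the lists are not reported here.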

Additional observations from a re-analysis of the deposited data

How the results depend on the processing

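Of the 24 transferases that rose or fell, 13 passed under every alternative, 4 higher and 9 lower, and these were the 13 that passed with DESeq2. The other 11 were lost with DESeq2 and without at least 1 library. DESeq2 gave 4 higher of 64 (6.25%, all genes 8.57%), and leaving out each library in turn gave 6 to 10 higher and 10 to 14 lower. The fewest rises were without control replicate 3, 8.96% of the transferases where all genes had 10.5%. The share that fell was above that of all genes in every alternative run. It ranged from 13.7% without a filter on low counts (all genes 9.83%) to 28.8% at an adjusted p under 0.05 (all genes 18.3%). The runs reuse the same libraries, so they are not independent of each other. Past both limits, 3 fell at an adjusted p under 0.05, and leaving out 1 library gave 1 to 2 that fell and 0 to 1 that rose. For the other lists, DESeq2 gave 10 higher, and leaving out 1 library gave 10 to 17 higher and 1 to 2 past both limits, the fewest rises without ADP-CM replicate 1. Changes near 0 crossed it without 1 library, with log2 fold changes down to -0.0186 for B3GALT6 (highest 0.0291), up to 0.000281 for FUT10 (lowest -0.0920), 0.00754 for GALNT14 (lowest -0.0217) and 0.0109 for MGAT4B (lowest -0.0127). MGAT4B also had 0.00160 with plain library sizes and 2.21e-05 without a filter. The cause was not tested. With the replicate number as a block, 12 transferases rose and 14 fell. Samples with the same number deviated from their group means with correlations of 0.0303 to 0.0878, each highest with its own number. Pairs with different numbers had correlations of -0.068 to 0.0182. Whether samples with the same number share more than the number was not tested. Another scaling moved the median of all genes by less than 0.01. Depth limits most the transferases under 5 CPM, where a 1.5-fold change could not always be bounded.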
